A study of Drosophila ananassae with 22 samples.

Results

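The genes described here are those of *D. ananassae* whose alternative promoters had their highest RNA levels at different times in the embryo. A promoter was counted when its transcription start site cluster (TSC) was attributed to an annotated gene and reached at least 10 RPM, the reads of a TSC scaled by the authors to a common library size, at its highest time point. A gene was included when the highest time points of 2 such TSCs lay at least 6 hr apart. The rule was met by 580 genes with 1515 TSCs. They make up 43.1% of the 1345 genes with at least 2 such TSCs, and the series has 27105 TSCs in all, of which 9916 were attributed and reached 10 RPM. The members were thus chosen by their own expression over time, so all values over time below are descriptions and none is a test. Some clusters may be listed under 2 genes and so counted more than once, which was not checked.

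The samples were whole embryos of the *D. ananassae* strain In(3R)A, from which the reference genome was made, collected without any treatment in windows of 1 hr from egg laying to 22 hr. RNA was profiled by RAMPAGE, a method that selects cDNAs complete up to the cap and sequences them from both sides, which places the first base of a read at a start site. Each time point had 1 library without a replicate, many embryos were pooled in it, and the barcoded time points were processed together as a single library. The 7-8 hr time point, with 579 reads in TSCs, was left out, which leaves 21 time points. These had 1193107 to 12409410 reads in TSCs with a median of 4420426, so that 1 read was worth 0.0806 to 0.838 RPM, and 0 reads allow a level of up to 2.51 RPM (3 reads) in the least deep library. Intervals are 95% Wilson intervals, which treat reads or pairs as independent and cover counting error only. In whole embryos, a change in the number of cells that use a promoter and a change in its activity per cell cannot be told apart. RAMPAGE reads show the RNA present, so RNA loaded by the mother cannot be told from RNA made in the embryo. Loss of RNA and lower promoter activity cannot be told apart either. Use, lead and level of a promoter below refer to the RNA present.

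A gene with alternative promoters can be transcribed from start sites that lie kilobases apart. Each promoter carries its own core elements and can answer to its own enhancers, and the transcripts differ at least in their first exon, which can alter the untranslated leader or the start of the protein. The fly embryo begins with transcripts that the mother loaded into the egg, and its own genome is switched on during the first hours. In *D. melanogaster* the gap gene hunchback is a classic case, with separate promoters for its maternal and its zygotic transcripts. The files used here do not pair the identifiers of *D. ananassae* genes with names, so the genes below are given by identifier and position, and no function is assigned to them. The gene table lists genes under *D. melanogaster* identifiers, again without names, and no marker genes of the embryo were looked up.

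For each gene 1 pair of promoters was described, namely the pair at least 6 hr apart whose weaker promoter reached the highest level. The promoter with the earlier highest time point is called early and the other late. All 580 pairs lay on the same scaffold and strand. The early promoter was highest before 3 hr in 296 pairs, between 3 and 9 hr in 186 pairs and between 9 and 16 hr in 98 pairs. The late promoter was highest between 3 and 9 hr in 37 pairs, between 9 and 16 hr in 290 and from 16 hr on in 253. The commonest combination, with 170 pairs, joined a promoter highest before 3 hr with one highest between 9 and 16 hr. Of the late promoters 91 were highest at 10-11 hr and another 91 at 19-20 hr. Of all 1515 member TSCs 9.50% and 7.06% were highest at these times, and of all 9916 attributed TSCs of 10 RPM 4.54% and 5.84%. The rule used the highest time points, so nothing is read from the difference. The 19-20 hr library was the least deep of the series, and its part in this number was not tested.

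**Figure D1:**
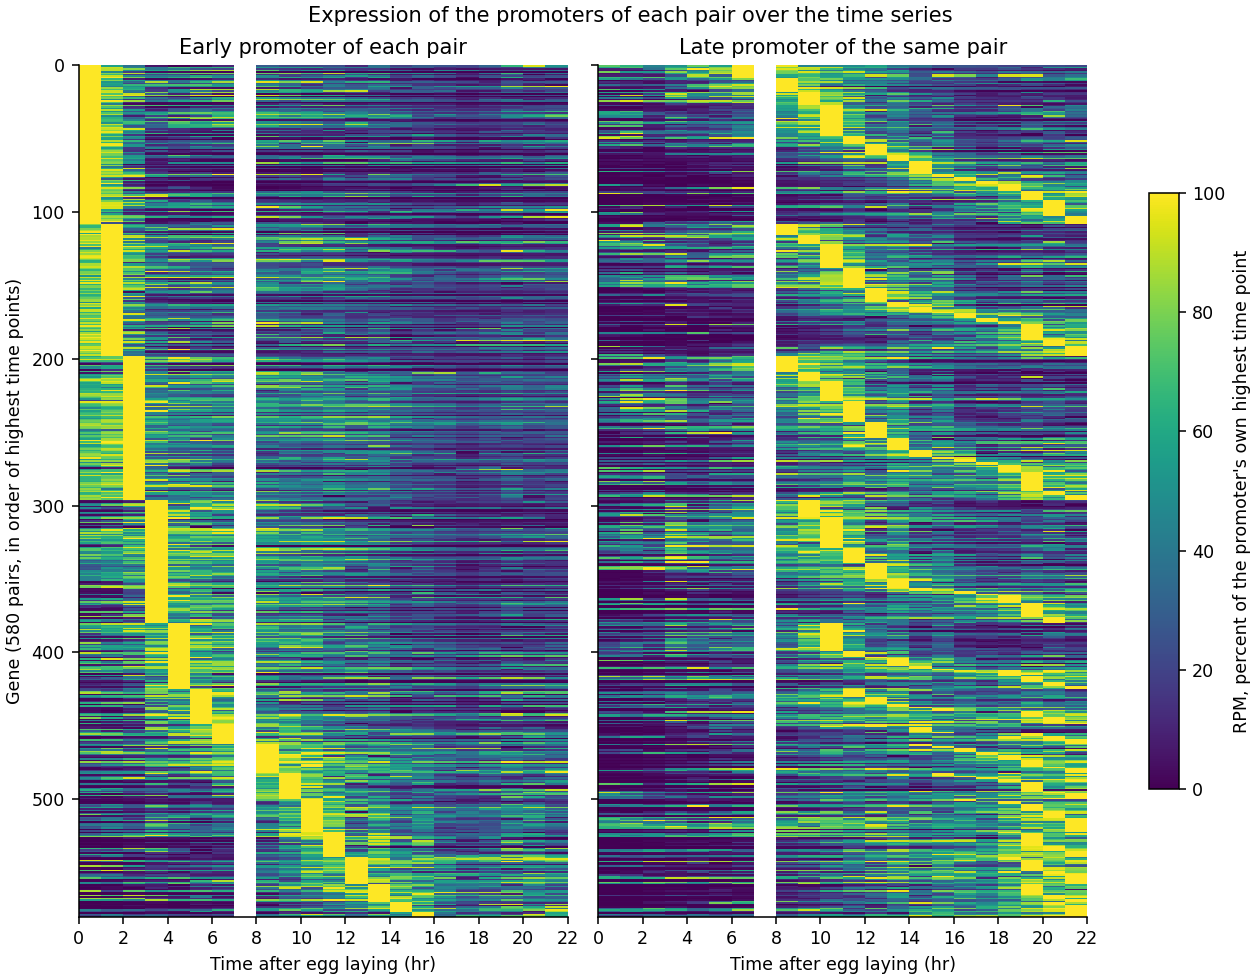
Expression of the early (left) and late (right) promoter of each of the 580 pairs against time after egg laying in hr, as percent of the promoter's own highest RPM (colour). Rows are the same genes in both panels, ordered by the highest time points, and the white column is 7-8 hr. Early promoters are highest before 3 hr in 296 rows, and late promoters include 91 rows each at 10-11 hr and 19-20 hr.

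Because both promoters of a pair are read in the same library, the share of the early one at a given time point does not depend on how libraries are scaled. The highest time points at which the share was read were set by RPM, and these do depend on the scaling. At its own highest time point the early promoter held a median of 94.7% of the pair's reads (interquartile range 72.6% to 99.2%), and at that of the late promoter 36.9% (9.30% to 73.6%). The median fall was 31.8 percentage points (12.8 to 60.6). For the 765 other genes with at least 2 promoters, where the highest time points were under 6 hr apart, the median was 4.58 points. This contrast follows from the rule itself.

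A difference in timing was often not a change of the leading promoter. The promoter with more reads differed between both highest time points, with intervals that excluded 50% at each, in 205 of the 580 pairs (35.3%, 31.6% to 39.3%). Over all 1345 genes with several promoters this share was 20.4%, and the rule used the same profiles, so nothing is read from the difference. The early promoter led at both times in 211 pairs and the late one at both times in 76, while in 88 pairs the lead could not be told from 50% at 1 of the times or at both. Within the described pairs, the name of switching genes thus fits 205 of the 580 in the sense of a changed leader. Other promoters of the same gene do not enter this count. All 580 are called time-shifted genes below. Both promoters were at least 2-fold higher at their own highest time point than at that of the other in 303 pairs (52.2%), against 28.0% of all 1345. The leader changed in 26.8% of the 280 pairs 6 to 9 hr apart and in 52.8% of the 125 pairs 15 to 21 hr apart.

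**Figure D2:**
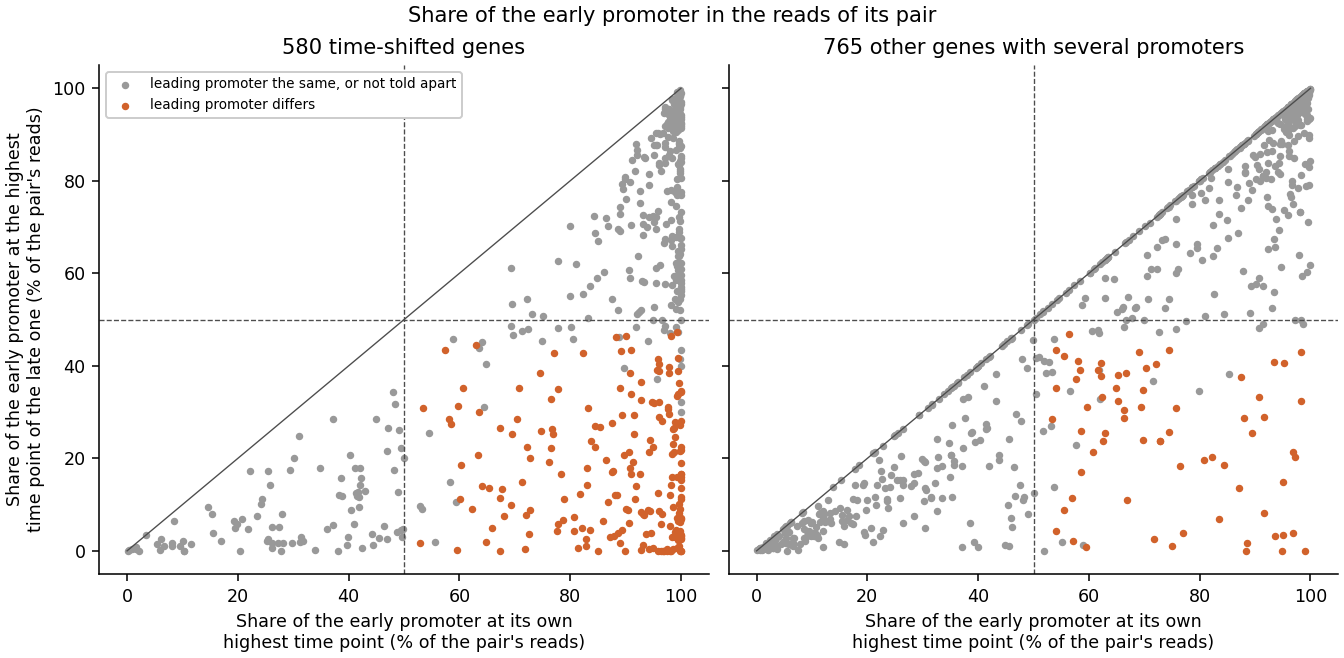
Share of the early promoter in the reads of its pair at its own highest time point (x axis, %) and at that of the late promoter (y axis, %), for the 580 time-shifted genes (left) and the 765 other genes with several promoters (right). Each point is 1 gene, dashed lines mark 50%, and orange points are the 205 and 70 pairs whose leading promoter differed.

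The profiles of the early and the late promoter had a median Pearson r of 0.18 over the 21 time points on log2(RPM + 1), and r was below 0 in 226 pairs (39.0%). Pairs were chosen from these same profiles, so nothing is read from the low r. The summed level of all TSCs of the gene differed by no more than 2-fold between both time points in 392 pairs (67.6%, 63.7% to 71.3%). In the 518 other genes with highest time points 1 to 5 hr apart this held for 475 (91.7%, 89.0% to 93.8%). By the rule, the time points compared lie farther apart in the time-shifted genes, so nothing is read from the difference. Among the 205 pairs with a changed leader the summed level differed by no more than 2-fold in 126 (61.5%, 54.6% to 67.9%). Their median log2 ratio of late to early was 0.07 (interquartile range -0.56 to 0.98). For 323 of the 580 genes a row of the deposited gene table had the same reads at all time points as the sum of all TSCs of the gene, for 1 gene a row equalled 1 TSC, and for 256 no row equalled either.

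The 12 pairs with the highest level of their weaker promoter, 357 to 1687 RPM, were read in more detail. The leader changed in 8 of them. FBgn0088734 had the strongest weaker promoter. Its early promoter FBgn0088734_01 (scaffold 13266, 10174676 to 10174983, minus strand) and its late one FBgn0088734_05 (10152881 to 10152992) lay 21893 bp apart, with the early one upstream. FBgn0088734_01 was at 841, 1220, 965 and 1877 RPM from 0-1 hr to 3-4 hr, and then between 130 and 587 RPM. FBgn0088734_05 rose from 10.0 RPM at 0-1 hr through 670 RPM at 8-9 hr to 1687 RPM at 13-14 hr, and was back at 206 RPM at 21-22 hr. The share of the early promoter went from 96.0% (95.5% to 96.3%) to 8.66% (8.19% to 9.16%), while the summed level of the gene was 2026 RPM at 3-4 hr and 1937 RPM at 13-14 hr. The level of this gene was thus nearly the same at both highest time points, which the rule picked. The early promoter also led at times of lower level. At 0-1 hr the pair was at 841 and 10.0 RPM, and at 4-5 hr at 417 and 70.3 RPM.

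In FBgn0095117 an early promoter gave way to one that grew until the end. FBgn0095117_01 (scaffold 13340, 9602338 to 9602477, plus strand) was at 252, 357 and 212 RPM in the first 3 hr and at 37.0 RPM or less from 3-4 hr on. FBgn0095117_04, 2927 bp downstream (9605275 to 9605394), was at 1.22 RPM at 0-1 hr and overtook it at 4-5 hr with 20.5 against 17.8 RPM. It then reached 620 RPM at 20-21 hr, when the early promoter had 5 reads. The share of the early promoter fell from 99.3% (98.9% to 99.6%) to 0.556% (0.238% to 1.3%). The gene table lists the reads of this gene under the *D. melanogaster* identifier FBgn0002719.

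FBgn0100504 had 5 promoters of at least 10 RPM. Its early promoter FBgn0100504_03 (scaffold 13337, 20899448 to 20899758, minus strand) was highest at 1-2 hr with 670 RPM and declined to 26.8 RPM at 21-22 hr. Its late promoter FBgn0100504_04 (20894905 to 20895180), 4560.5 bp downstream, had 2 maxima, 530 RPM at 9-10 hr and 630 RPM at 21-22 hr, with 84.4 RPM between them at 16-17 hr. The profile of the late promoter was thus not a single rise. The share of the early promoter was 99.0% (98.6% to 99.2%) at 1-2 hr and 4.08% (3.33% to 5.00%) at 21-22 hr.

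In FBgn0101888 a late promoter was added to one that stayed on. FBgn0101888_02 (scaffold 13337, 80603 to 80719, plus strand) kept between 109 and 440 RPM at all 21 time points. FBgn0101888_08 (88450 to 88504), 7816 bp downstream, had 0 to 11.1 RPM up to 6-7 hr, reached 1898 RPM at 18-19 hr and was back at 156 RPM at 21-22 hr. TSCs of 2 other genes lay between both promoters. The early promoter's share fell from 99.8% to 6.38% (6.01% to 6.77%), while its own level fell from 440 to 129 RPM.

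**Figure D3:**
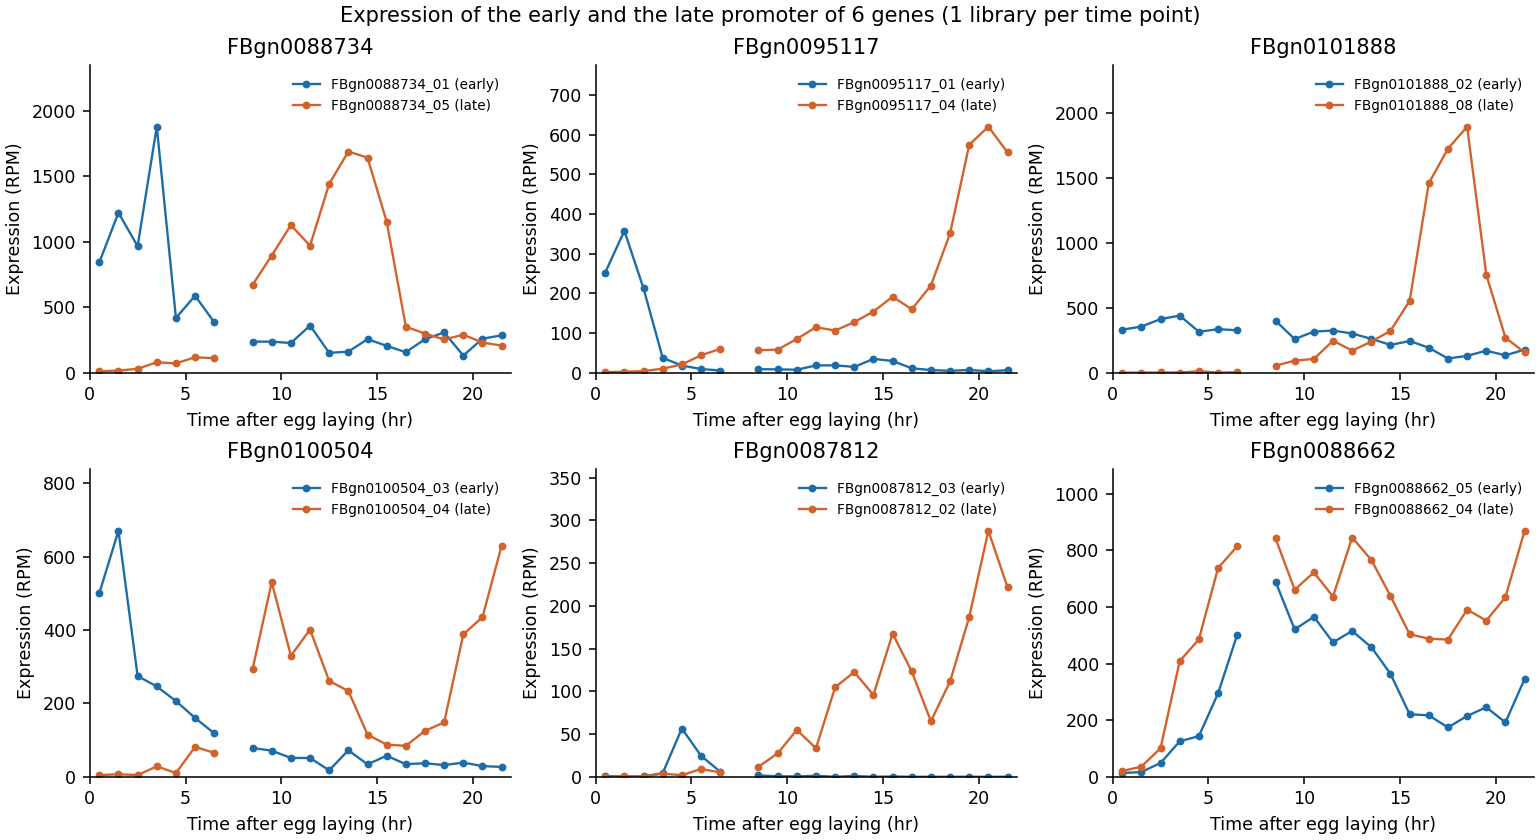
Expression in RPM of the early (blue) and late (orange) promoter of 6 genes against time after egg laying in hr. Points are single libraries, and lines break at the omitted 7-8 hr. In FBgn0088734, FBgn0095117, FBgn0101888, FBgn0100504 and FBgn0087812 the leading promoter changes, whereas in FBgn0088662 the late promoter leads at all time points.

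The other 4 of these pairs with a changed leader had smaller falls. FBgn0091733_01, at 721 RPM at 0-1 hr, gave way to FBgn0091733_03, 17224.5 bp downstream, which stayed between 845 and 1257 RPM from 3-4 hr to 10-11 hr, and the share of the early promoter fell from 86.8% (86.0% to 87.6%) to 10.5% (9.92% to 11.1%). FBgn0099819 had the reverse order on the chromosome: its early promoter FBgn0099819_05 lay 3077 bp downstream of the late one and held 91.4% of the reads at 2-3 hr and 25.3% at 13-14 hr. In FBgn0097824 the share fell from 89.0% to 35.2%, although the early promoter itself was at 522 RPM at 1-2 hr and still at 421 RPM at 9-10 hr. In FBgn0088197 it fell from 58.2% (57.3% to 59.1%) at 9-10 hr to 28.6% (26.9% to 30.3%) at 15-16 hr, and by 15.5 points when the highest time points were taken from the mean of 3 adjacent libraries.

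In the remaining 4 of the 12 pairs 1 promoter led at both times. FBgn0088662_05 and FBgn0088662_04, of 1 gene and 1905.5 bp apart, rose together from 13.1 and 20.2 RPM at 0-1 hr to 689 and 842 RPM at 8-9 hr. Their profiles had an r of 0.95, and the pair met the rule because the second promoter reached 869 RPM again at 21-22 hr. In FBgn0096509 the late promoter, between 611 and 2544 RPM at all time points, led throughout and the early one held 20.8% and then 6.96% of the reads. In FBgn0101946 the early promoter, with 984 to 5042 RPM, led throughout with 95.4% and then 87.8%. FBgn0093733_02 went from 1.57 RPM at 1-2 hr to 408 RPM at 12-13 hr and lowered the share of FBgn0093733_01 from 99.9% to 64.2% (61.9% to 66.4%). The fall in FBgn0088662 was 16.6 points, and 5.91 points with the highest time points from the mean of 3. Neither promoter of FBgn0096509 was called to change with time by limma, with an adjusted p of 0.266 for the early one, FBgn0096509_04, and 0.636 for the late one, FBgn0096509_02.

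The 6 pairs with the largest further falls in share, among those with both promoters at 50 RPM or more, changed by 96.0 to 98.3 points. FBgn0095017_02 (scaffold 13340, 8070951 to 8071036, plus strand) was at 502 RPM at 0-1 hr, 39.1 RPM at 2-3 hr and 1.09 RPM at 6-7 hr. FBgn0095017_01 (8068602 to 8069015), 2185 bp upstream, was at 0.245 RPM (2 reads) at 0-1 hr and reached 207 RPM at 17-18 hr. In FBgn0012113 the promoters were 652 bp apart, and the early one fell from 51.7 RPM at 0-1 hr to 1 read at 20-21 hr, when the late one was at 206 RPM. FBgn0087812_03 (scaffold 13337, 18177664 to 18177692, plus strand) had a short early use, with 56.5 RPM at 4-5 hr, 24.6 RPM at 5-6 hr and no read from 16-17 hr on. FBgn0087812_02, 3292.5 bp upstream, was at 1.78 RPM at 4-5 hr and 288 RPM at 20-21 hr. The fall of 96.9 points in FBgn0087812 was 83.9 points with reads summed over 3 adjacent time points and 72.9 points with the highest time points from the mean of 3. The other 3, FBgn0095150, FBgn0091532 and FBgn0087520, joined a promoter highest at 0-1 hr, with 144, 226 and 269 RPM, to a downstream promoter highest at 14-15 hr (202 RPM), 11-12 hr (68.1 RPM) and 14-15 hr (863 RPM).

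Over all pairs, the late promoter had no read at the highest time point of the early one in 42 pairs (7.24%, 5.40% to 9.64%), and the early promoter had none at that of the late one in 17 (2.93%, 1.84% to 4.64%). Such counts depend on depth, which differed between the libraries. FBgn0097330, just inside the limit with 6 hr between its highest time points, went from 90.8% to 18.0%, and FBgn0088136, just outside with 5 hr, reached 3224 RPM in its weaker promoter. By level, FBgn0088316 was just inside with a late promoter of 10.1 RPM and shares of 95.8% and 90.2%, a fall of 5.55 points that was 2.88 with reads summed over 3 adjacent time points and 0 with the highest time points from the mean of 3, and FBgn0087189 just outside with 9.97 RPM.

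The position of the promoters was not used by the rule. The early promoter was the upstream one in 390 of the 580 pairs (67.2%, 63.3% to 70.9%). In the 518 other genes whose highest time points were 1 to 5 hr apart it was upstream in 277 (53.5%, 49.2% to 57.7%), and the intervals of both groups do not overlap. By the rule the groups differ in this gap. A gap of 1 to 5 hr cannot join a promoter highest before 3 hr with one highest at 9-16 hr. With a short gap between single libraries, it is also less certain which promoter is early. The part of this in the difference was not tested. The share was 67.1% in pairs 6 to 9 hr apart, 65.1% in those 10 to 14 hr apart and 70.4% in those 15 to 21 hr apart. It was highest, at 78.8% (72.1% to 84.3%), where the early promoter was highest before 3 hr and the late one between 9 and 16 hr. From before 3 hr to the last 6 hr it was 71.9% (61.8% to 80.2%). Among the 96 pairs that went from 9-16 hr to 16-22 hr the early promoter was upstream in 42 (43.8%, 34.3% to 53.7%), and among the 37 that went from before 3 hr to 3-9 hr in 18 (48.6%, 33.4% to 64.1%). The intervals of both these classes include 50%, and those of the other 4 classes of more than 2 pairs lie above it. Among the 205 pairs with a changed leader it was 62.9% (56.1% to 69.2%).

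**Figure D4:**
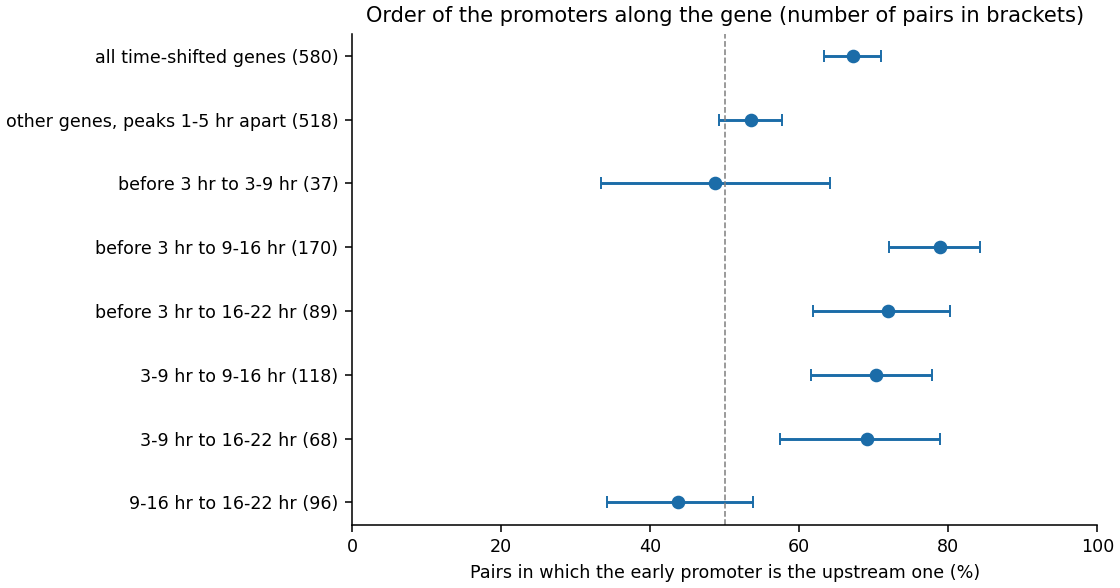
Percent of pairs in which the early promoter is the upstream one (x axis), for all time-shifted genes, the other genes with several promoters and the classes of early and late highest time points (rows, with the number of pairs). Points are shares, bars are 95% Wilson intervals and the dashed line is 50%. The intervals of the first 2 rows do not overlap, but by the rule these groups differ in the gap between highest time points. The interval of the 96 pairs from 9-16 hr to 16-22 hr lies around 50%.

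The centres of both promoters were a median of 2947 bp apart (interquartile range 1128 to 8651 bp), against 2038 bp (802 to 5260 bp) in the 765 other genes. Distances ranged from 175.5 to 384170 bp. They were under 500 bp in 63 pairs (10.9%, 8.58% to 13.7%) and over 20000 bp in 64 (11.0%, 8.74% to 13.8%), against 14.9% and 6.27% of the other genes. The median was 2185 bp for pairs 15 to 21 hr apart and 3233.75 bp for those 6 to 9 hr apart. The 3 closest were FBgn0101339 (175.5 bp), FBgn0090520 (200.5 bp) and FBgn0091415 (214 bp). In FBgn0101339 each promoter was at 14.8 RPM at 3-4 hr, and at 19-20 hr they were at 8.38 and 33.5 RPM. In FBgn0091415 the early promoter was 15 bp wide and held 1.57% of the reads, so that the pair rests on a side cluster of a strong promoter with 1033 RPM.

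The 3 farthest pairs were FBgn0090969, FBgn0092710 and FBgn0095367, with 384170, 381813 and 281228 bp, and in all 3 the late promoter was the upstream one. FBgn0090969_02 (scaffold 13339, 1262443 to 1262679, minus strand) was at 786 RPM at 2-3 hr and FBgn0090969_01 (1646629 to 1646833) reached 96.5 RPM at 12-13 hr, with no TSC of another gene between them. The share of FBgn0090969_02 fell from 95.5% (94.9% to 96.1%) to 69.6% (65.3% to 73.6%), and by 4.87 points with reads summed over 3 adjacent time points. In FBgn0092710 the share fell from 62.9% to 44.6% (40.1% to 49.1%), and by 0 points with the highest time points from the mean of 3. In FBgn0095367 the late TSC was 3 bp wide, TSCs of 42 other genes lay between, and the share hardly moved, from 97.0% to 95.9%. Over all pairs, TSCs of another gene lay between the promoters in 75 (12.9%, 10.4% to 15.9%). Without these 75 the median distance was 2718.5 bp and the early promoter was upstream in 67.5%.

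**Figure D5:**
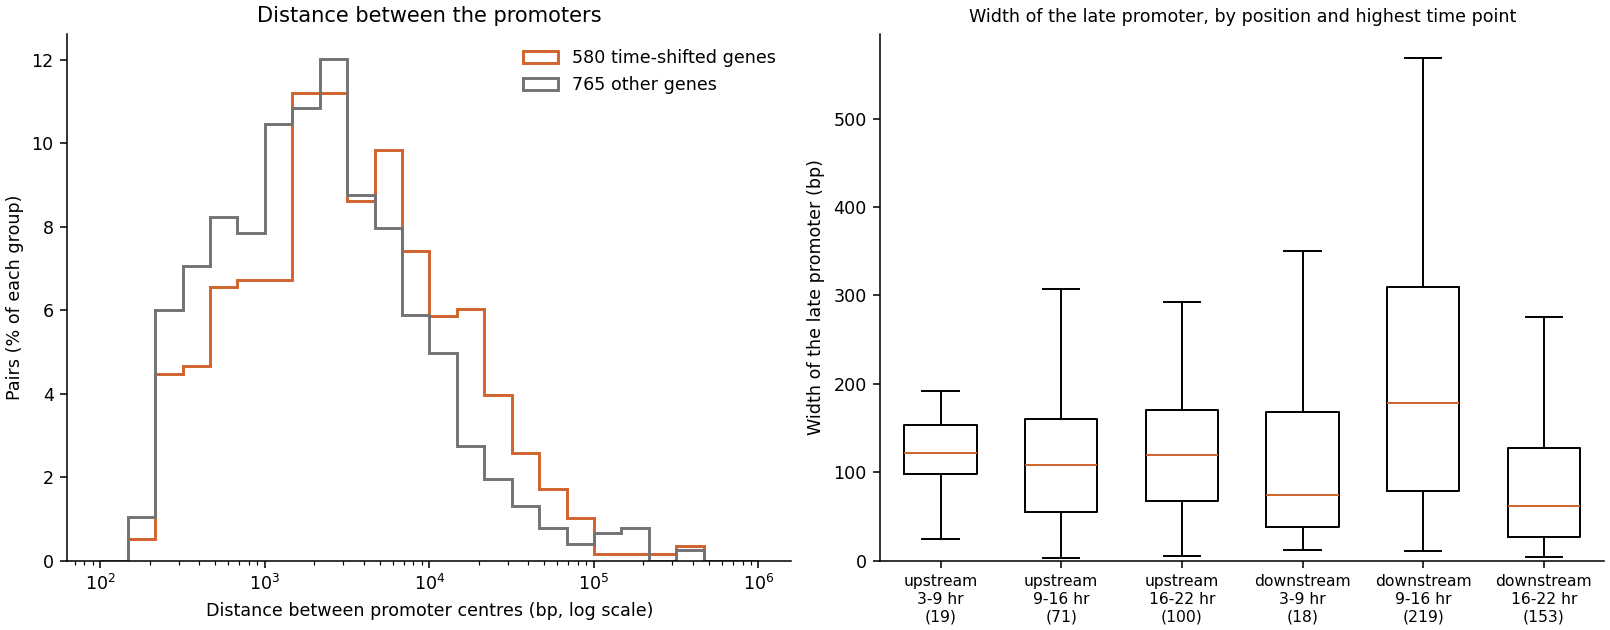
Left, distance between the centres of the promoters of a pair (bp, log scale) as percent of the 580 time-shifted and the 765 other genes, with medians of 2947 and 2038 bp. Right, width in bp of the late promoter by its position in the pair and its highest time point, with the number of pairs; boxes are quartiles with the median in orange, whiskers reach the last value within 1.5 box lengths and outliers are not drawn. Late promoters that lie downstream and are highest at 9-16 hr have the largest median of the 6 classes, 178 bp.

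The width of a TSC, the span over which start sites were grouped, was also not used by the rule. Early and late promoters had like medians of 115.5 and 116.5 bp, but the late ones spread more widely (interquartile range 52 to 216 bp against 82 to 164 bp). The 219 late promoters that lay downstream of the early one and were highest at 9-16 hr had a median of 178 bp (78.5 to 310 bp), and 45.2% of them (38.8% to 51.8%) were over 200 bp wide. The 71 late promoters of the same hours that lay upstream had a median of 108 bp, and 19.7% (12.1% to 30.4%) were over 200 bp wide. From 16 hr on, the 153 downstream late promoters had a median of 62 bp, and 15.0% (10.2% to 21.5%) were over 200 bp wide. Late promoters of the 765 other genes with several promoters had a median of 129 bp (71 to 251 bp). By highest time point, TSCs of these other genes had medians of 132 bp before 3 hr, 121 bp at 9-16 hr and 107 bp from 16 hr on, against 115, 134.5 and 87 bp for member TSCs. Among attributed TSCs of genes with a single promoter of 10 RPM, those highest at 9-16 hr had a median width of 87 bp and those from 16 hr on of 46 bp. The wide downstream promoters of 9-16 hr were also weak, with a median of 945 reads over the series and a highest level of 25.0 RPM, whereas early upstream promoters highest before 3 hr had 6536 reads and 171 RPM. Whether such wide and weak TSCs inside a gene are promoters of their own was not tested, which also limits the shares by position above. Among member TSCs with under 1000 reads, those highest at 9-16 hr had a median width of 130 bp, against 74 bp before 3 hr and 50 bp from 16 hr on.

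Neighbouring transcription on the other strand was recorded as a TSC of the opposite strand within 1000 bp upstream. It was found at 255 of the 580 upstream promoters of a pair (44.0%, 40.0% to 48.0%) and at 119 of the downstream ones (20.5%, 17.4% to 24.0%). Early promoters had it in 230 pairs (39.7%) and late ones in 144 (24.8%). In the 765 other genes with several promoters the shares were 38.7% for early and 30.3% for late promoters. Shares by position are not given for these genes, so the difference between upstream and downstream promoters is not read as particular to time-shifted genes. Of member TSCs highest before 3 hr 40.2% had such a TSC upstream (35.2% to 45.3%), and of those of the 765 other genes 43.1% (38.5% to 47.9%). From 16 hr on the shares were 21.8% and 16.2%. Upstream early promoters highest before 3 hr had it in 49.5% (42.9% to 56.2%), downstream early ones of the same hours in 27.5% (18.9% to 38.1%), and upstream late ones from 16 hr on in 38.0% (29.1% to 47.8%). Promoters of genes with a single TSC of 10 RPM had it in 59.9% when highest before 3 hr and in 23.4% from 16 hr on.

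Most time-shifted genes, 369 of 580, had exactly 2 promoters of 10 RPM, and 211 had 3 or more. In 26 of these 211 (12.3%, 8.55% to 17.4%) at least 3 promoters were highest at times 6 hr or more from each other. Successions in which each of the 3 had the most reads of them at its own highest time point, whatever the intervals, numbered 3 and were weak, with highest levels of 10.9 to 23.9 RPM. These were FBgn0098432, FBgn0090707 and FBgn0090927, named after their values were seen, and FBgn0090707 alone had intervals above 50% at all 3 times. The first promoter of FBgn0098432 held 53.3% (46.8% to 59.6%) at its highest time point. In FBgn0090927 the second held 39.9% (33.8% to 46.3%), with 13.2 RPM against 12.5 RPM for the first one, and the last 40.6% (25.5% to 57.7%), with 10.9 RPM against 10.1 RPM. In FBgn0090707 (scaffold 13266, plus strand) the leader of the 3 was FBgn0090707_05 at 1-2 hr with 12.5 RPM, FBgn0090707_03 at 13-14 hr with 19.4 RPM and FBgn0090707_04 at 21-22 hr with 20.5 RPM. Their shares of the summed reads of the 3 at those times were 98.8% (93.3% to 99.8%), 59.9% (53.4% to 66.1%) and 68.0% (58.3% to 76.3%). Other promoters of these genes, such as FBgn0090707_06, did not enter the shares.

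FBgn0097717 and FBgn0089824 had the most promoters, with 10 each. In FBgn0097717 (scaffold 12943, minus strand) the outermost promoter FBgn0097717_01 rose from 33.9 RPM at 0-1 hr to 1855 RPM at 8-9 hr. A group of 3 up to 43515.5 bp downstream, between 4214344 and 4215551, was highest at 2-3 hr or 4-5 hr with 293, 133 and 154 RPM, and 4 still farther downstream reached 11.4 to 21.3 RPM at 9-10 hr. In FBgn0089824 (scaffold 13266, plus strand) the outermost promoter was highest at 8-9 hr with 18.3 RPM, and the other 9 were highest between 17-18 hr and 21-22 hr with 10.1 to 139 RPM. The promoters of FBgn0089824 downstream of the first were thus highest late, and those of FBgn0097717 were not ordered by position. Use could begin earlier, as FBgn0089824_08 was already at 26.6 RPM at 11-12 hr, against 17.3 RPM for the outermost promoter FBgn0089824_02.

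The widest range of highest times, 21 hr from 0-1 hr to 21-22 hr, was found in 7 genes. FBgn0087904 (scaffold 13337, plus strand) had 3 promoters in order along the strand, highest at 0-1 hr (62.5 RPM), 10-11 hr (69.0 RPM) and 21-22 hr (14.5 RPM). At 21-22 hr the last of them was the weakest, as the others were at 15.1 and 25.6 RPM. It held 26.2% (20.4% to 33.0%) of their summed reads. FBgn0100244, FBgn0090220 and FBgn0100698 exchanged 1 weak promoter for another, with early levels of 12.9 to 14.0 RPM. In FBgn0088263, FBgn0095043 and FBgn0088746 the early promoter still led, with 76.9% to 85.6% of the reads of the pair at the highest time point of the late one. FBgn0088263_01 was at 205 RPM at 0-1 hr and 198 RPM at 21-22 hr. FBgn0088746_04 was at 245 RPM at 0-1 hr and 229 RPM at 18-19 hr. Their name as early thus rests on small differences between single libraries, whereas FBgn0095043_01 fell from 640 RPM at 0-1 hr to 109 RPM at 21-22 hr.

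A change with time was called for 1390 of the 1515 TSCs (91.7%) by limma on log2(RPM + 1) with a spline of time, at an adjusted p of 0.05 over 11300 TSCs of at least 10 RPM, of which 93.8% were called. The rule used the same profiles, so nothing is read from this count. By edgeR's quasi-likelihood test on recovered reads 1312 of the members were called, and 90.4% of the 11300. The members that were not called met the rule by their highest time point all the same. Some TSCs of different genes had equal adjusted p by limma. Examples were FBgn0092692_02 and FBgn0092693_02 (9.115e-12 each), and FBgn0101910_01 and FBgn0101911_01 (3.204e-11 each). Whether these are 1 cluster under 2 names was not checked, and pairs that share a cluster are not independent. Under 5-fold variation over the series, which the study used for housekeeping promoters, was found in 157 of the 1515 TSCs (10.4%, 8.93% to 12.0%) and in 9.11% of all 9916 attributed TSCs of 10 RPM. For such flat promoters the highest time point is set by small differences. With TMM scaling, whose factors ran from 0.566 to 1.34, the rule gave 521 genes, and 424 of the 580 were among them.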

How the data were processed

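RAMPAGE data of *D. ananassae* embryos were analysed at 22 time points, grouped by the age on the labels. The authors mapped reads with STAR (version not given in the sources used here) to the FlyBase r1.3 genome, called TSCs on the pooled series and attributed them to genes. The deposited tables give RPM. In the deposited peak list the authors give positions and a score whose meaning is not stated, which was not used. Coordinates are 1-based.

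Within a time point, RPM values were divided by the smallest value above 0 (1 read), and 100% of the values were whole within 0.1 read. The 7-8 hr time point was left out. Gene-table rows were matched to genes by equal reads at all time points. Distances are between TSC centres. Change with time was tested by limma (natural spline, 4 degrees of freedom, pseudocount 1 RPM, Benjamini-Hochberg) and by edgeR's quasi-likelihood test on recovered reads, which called 10216 of the 11300 TSCs (90.4%) and 1312 of the members. The rule and this test were tried on simulated data. For the rule these were strong, clearly peaked promoters with counting error only, so they do not show how it behaves for flat or weak ones.

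Members and lists were chosen with earlier results of these data known. The pairs named were the 12 with the highest weaker promoter, the next 6 by change in share with both at 50 RPM or more, the 3 farthest and 3 closest, those beside the thresholds, and the genes with the most promoters or the widest range. A list of 22 known genes could not be used, since none of the identifiers matched the reference gene table, and no genome was used, so no motif was searched. Alternatives were other minima, gaps, scalings and distances, and each time point left out. Python 3.11.15, pandas 2.3.3, scipy 1.17.1, matplotlib 3.10.9, R 4.3.3, limma 3.58.1 and edgeR 4.0.16 were used.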

Additional observations from a re-analysis of the deposited data

Results flagged for a closer look

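The 7-8 hr library, which is in none of the comparisons, held 579 reads in TSCs, and 78 of them lay in TSCs of the time-shifted genes (13.5%, 95% Wilson interval 10.9% to 16.5%). These reads fell in 56 of the 1515 TSCs. They were picked out as a signal in data outside the main measurement. In the other time points these TSCs took 9.02% to 18.9% of the reads, with a median of 15.9%.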

How the results depend on the processing

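The number of time-shifted genes was 580, and 897 with a minimum of 5 RPM and 295 with 25 RPM, where more or fewer TSCs enter. All of the 295 were among the 580. It was 700 with a gap of 4 hr, 461 with 8 hr, 521 with TMM scaling and 491 with the mean of 3 adjacent time points, of which 424 and 439 were among the 580. With 25 RPM the leader changed in 135 pairs (45.8%), in place of 205 (35.3%), and both promoters were at least 2-fold higher at their own highest time point in 160, in place of 303. The median fall in share was 40.3 points with 25 RPM, 37.4 points with a gap of 8 hr and 24.5 points with reads summed over 3 adjacent time points, in place of 31.8. The share of pairs with the early promoter upstream was 64.3% to 68.3% and the median distance 2711 to 3062 bp in the other settings. Leaving out each time point in turn gave 557 to 588 genes, 188 to 210 pairs with a changed leader, 66.3% to 68.9% with the early promoter upstream, and 1354 to 1391 member TSCs called to change with time. The alternatives for the fall in share, the 2-fold count, the pairs without another gene between and the named pairs, and some for the other values, were added after the data were seen. For the 35 named pairs the fall in share was recomputed in 2 ways. It moved beyond its interval in 14 pairs with reads summed over 3 adjacent time points and in 15 with the highest time points from the mean of 3, where FBgn0088316 and FBgn0092710 went to 0. FBgn0097717 went from 51.2 to 32.1 points with the summed reads. With the mean of 3, FBgn0088197 went from 29.6 to 15.5, FBgn0090969 from 25.9 to 8.74 and FBgn0095367 from 1.12 to 0.21 points. No paired analysis was possible because a single library stands for each age. Motifs were not searched. Depth limits the low promoters, where 1 read is worth up to 0.838 RPM.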
